A study of Mus musculus with 8 samples.

Results

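Most of the genes described here encode the machinery with which RNA polymerase II begins transcription in mouse cells. All were chosen by name, as the rows named Polr2 with a letter from a to m, Med with a number, Gtf2 followed by a, b, e, f or h, or Taf with a number. Of 48676 rows, 79 matched: 13 of RNA polymerase II, 30 of Mediator, 13 of the general transcription factors TFIIA, TFIIB, TFIIE, TFIIF and TFIIH, and 23 TAFs (TBP-associated factors). The TAFs include Taf1a, Taf1b, Taf1c and Taf1d of the polymerase I factor SL1, Taf5l and Taf6l of the SAGA coactivator, and the RNA-binding protein Taf15. These are in all counts and medians below. The cells were NIH3T3, an immortalised line of mouse embryonic fibroblasts, and the RNA came from their nuclei. The 4 groups were untreated cells and cells stressed for 2 h, by heat shock at 44 °C, by osmotic stress with 200 mM KCl or by oxidative stress with 0.2 mM H2O2 (hydrogen peroxide), each with 2 libraries. No allele or transgene is named for any group. Whether the 2 libraries of a group came from separate cultures is not stated, so the p-values below measure only the spread between these libraries, which may be technical.

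RNA polymerase II makes the messenger RNAs and many non-coding RNAs of the nucleus. TFIID binds the promoter through TBP and its TAFs, TFIIA and TFIIB join it, the polymerase arrives with TFIIF, and TFIIE and TFIIH complete the complex and open the DNA. Mediator, built of head, middle and tail modules around Med14, carries signals from DNA-bound activators to the polymerase, and a detachable kinase module (Med12, Med13, Cdk8 or Cdk19, and cyclin C) controls that contact. Heat shock and other stresses are known for a broad fall of transcription beside strong induction of stress genes, and the study's title concerns transcription that reads through past the ends of genes under stress.

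Levels are given in RPKM, reads scaled by the length of the gene model and by the mapped reads of the library, as the authors computed them, so they are per length and relative to the library. In such bulk samples, fewer cells and less RNA per cell cannot be told apart, and a fall of all RNA in the nucleus would not be seen. Differences were tested with limma on log2(RPKM + 0.5) over the 16056 rows that reached 0.5 RPKM in at least 2 of the 8 libraries, and a gene is called where the p adjusted by Benjamini-Hochberg over all these rows is under 0.05. A fold change is on this same scale and understates the change of low genes. Of the 79 genes, 74 were tested.

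Column sums were 503400 to 771700 RPKM in 7 libraries and 1943000 RPKM in osmotic stress replicate 1. There the row AC113316.1 held 1030000 RPKM, against at most 81700 elsewhere, and Malat1, a nuclear non-coding RNA, had the value 0, where the others held 1840 to 2330 RPKM. The counts of calls, the median change and the changes of genes near the threshold that rest on that library are therefore also given without it. Other values of single genes, and the counts of genes without overlap, include it. All 9 fibroblast markers were above the filter, led by S100a4 at 5640 and 6100 RPKM and Vim at 1590 and 979 RPKM in untreated cells, although Thy1 (2.05 and 0.732 RPKM) and Pdgfrb (0.951 and 1.11 RPKM) were low. Of 11 markers of other cell types 5 were tested. Among the defining ones, Epcam (epithelium) and Myog (muscle) were at 0 in untreated cells, while Cd68, a gene of macrophage lysosomes, stood at 28.6 and 16.9 RPKM and Des, a muscle filament gene, at 4.43 and 3.69 RPKM.

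In untreated cells the genes of this machinery spanned a wide range of levels, and partners in 1 complex were not at like levels. Among the 12 tested polymerase genes the median was 21.7 RPKM. Polr2f, a subunit shared with polymerases I and III, was highest at 130 and 105 RPKM, and Polr2b, the second-largest subunit and part of the catalytic core, was lowest at 2.88 and 4.23 RPKM. Polr2a, the largest subunit, whose C-terminal repeats are phosphorylated during transcription, stood between them at 21.2 and 23.5 RPKM. The Mediator median was 10.1 RPKM over 29 tested genes, from Med28 (38.5 and 38.7 RPKM) to Med29 (2.21 and 1.66 RPKM). Gtf2a2, the small subunit of TFIIA, was highest among the general factors at 68.5 and 60 RPKM, and Gtf2e1 of TFIIE lowest at 6.13 and 5.51 RPKM. Among the TAFs, Taf1d of the polymerase I factor SL1 was highest at 134 and 141 RPKM, and Taf3 of TFIID lowest at 1.67 and 1.07 RPKM. In GENCODE M21 10 annotated small RNAs lie inside the Taf1d gene, and whether its level includes theirs was not tested.

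**Figure D1:**
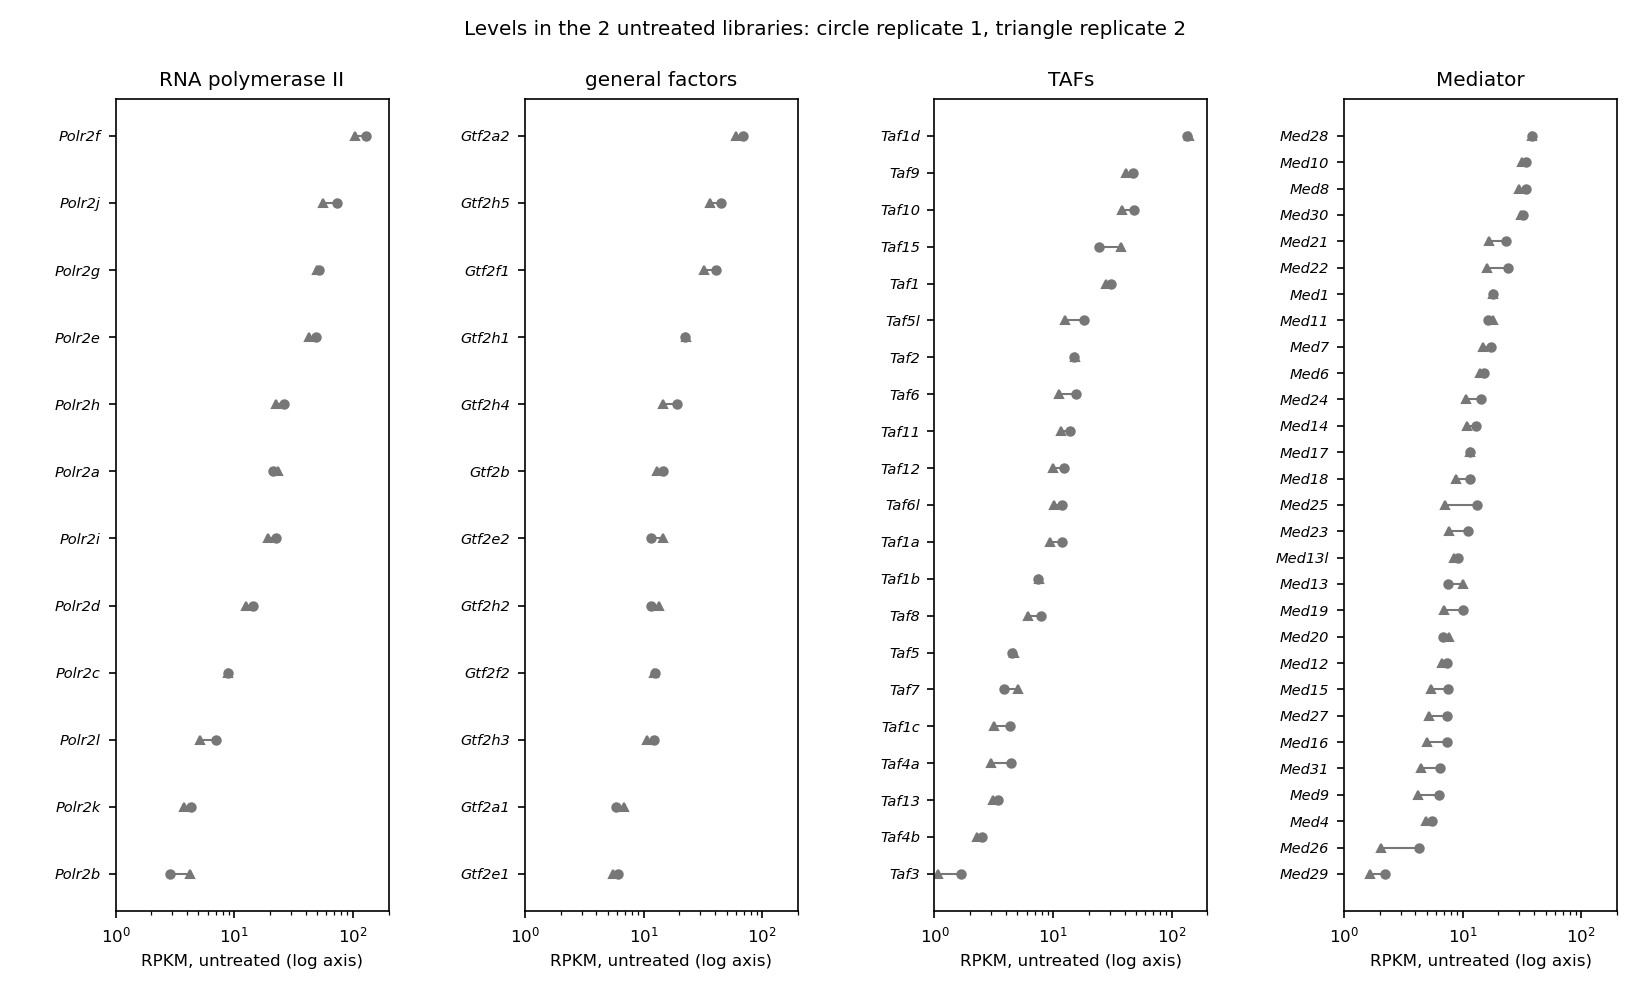
Level of each of the 74 tested genes in the 2 untreated libraries, in RPKM on a log axis, with 1 panel per complex; a circle is replicate 1, a triangle replicate 2, and the line joins them. Polr2f (130 and 105 RPKM) and Taf1d (134 and 141 RPKM) stand at the top, and Taf3 (1.67 and 1.07 RPKM) at the bottom.

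The other 5 genes did not pass the filter. Taf9b, a close relative of Taf9 in TFIID, was listed at 0 in all 8 libraries. Polr2m, which encodes the polymerase-associated protein Gdown1, was at or below 0.00633 RPKM in each library, and Med12l, the relative of Med12, at or below 0.19 RPKM. Gtf2a1l, a TFIIA subunit known from germ cells, had 0.683 and 0.289 RPKM after oxidative stress, where both untreated values were listed as 0. Taf7l, a TAF7 relative known from germ cells and fat cells, was at 0.00671 and 0.031 RPKM in untreated cells and at 1.85 and 0.309 RPKM after oxidative stress. Both of these germ-cell relatives were highest in oxidative stress replicate 1, the only library in which either reached 0.5 RPKM. In the same oxidative stress libraries the 11 markers of other cell types summed to 33.3 and 31.4 RPKM, against 11.4 to 33.8 RPKM in the other 6 libraries. Without Cd68 and Des the remaining 9 summed to 4.93 and 2.29 RPKM, against 0.496 to 0.935 RPKM in those 6 libraries. Whether the pattern of these 9 markers and that of the 2 germ-cell relatives share a source was not tested.

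After heat shock the largest polymerase subunit and the large subunit of TFIIF were lower, and a Mediator kinase-module gene, a Mediator tail gene and a TFIIH gene were higher. Of the 74 tested genes 3 rose and 2 fell, where 6.62% of all tested rows were called (2.54% higher and 4.08% lower), so the share called is near the background. The median log2 change was -0.01, against -0.09 over all tested rows, and 60 of the 74 genes changed by less than 0.5 on the log2 scale in either direction. By complex, 0 rose and 1 fell of 12 polymerase genes, 2 and 0 of 29 Mediator genes, 1 and 1 of 12 general factors, and 0 and 0 of 21 TAFs. At an unadjusted limma p under 0.05 there were 20 of the 74 genes, of them 4 TAFs, where 25.5% of all rows passed.

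Polr2a was at 21.2 and 23.5 RPKM in untreated cells, and heat shock left 7.42 and 9.42 RPKM. The groups lay far apart, and the level was 2.58-fold lower after heat (log2 change -1.37, SE 0.22, limma adjusted p = 0.024). None of the other 11 tested polymerase genes was called. The nearest to the threshold were Polr2g (Rpb7, which forms a stalk with Polr2d), with log2 change -0.51 and limma adjusted p = 0.07, and Polr2i (Rpb9), with -0.53 and 0.073. All 7 subunits that belong to polymerase II alone had an estimate below 0, from -1.37 to -0.02, as did 9408 of all 16056 tested rows. For 3 of the 7 both heat shock libraries lay below both untreated ones, as for 35.8% of all tested rows. The 5 subunits shared with polymerases I and III ranged from -0.49 for Polr2e to 0.12 for Polr2f. Polr2b, at 3.15 and 2.82 RPKM after heat shock, overlapped its untreated values.

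Gtf2f1, the large subunit of TFIIF, which travels with the polymerase, went from 41.0 and 32.1 RPKM to 16.4 and 17.7 RPKM. Both heat shock libraries lay below both untreated ones, a 2.1-fold fall (log2 change -1.07, SE 0.15, limma adjusted p = 0.018). Its partner Gtf2f2 was level in all groups, with 12.5 and 12.3 RPKM in untreated cells and 12.5 and 12.0 RPKM after heat shock (log2 change -0.02, SE 0.13). Only the large subunit of TFIIF was thus called, and the difference between the changes of the 2 genes was not tested. Gtf2h1, the p62 core subunit of TFIIH, went the other way, from 22.2 and 22.9 RPKM to 33.8 and 41.9 RPKM, a 1.65-fold rise (log2 change 0.73, SE 0.14, limma adjusted p = 0.036). The other 4 TFIIH genes of the set were not called, with log2 changes from -0.34 for Gtf2h2 to 0.09 for Gtf2h5. Gtf2b, the only gene of TFIIB, was at 14.6 and 12.9 RPKM untreated and 16.4 and 15.9 RPKM after heat (limma adjusted p = 0.47).

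In Mediator, Med13, the kinase-module subunit that links the kinase to the core, was at 7.49 and 9.98 RPKM in untreated cells and at 18.8 and 21.7 RPKM after heat shock. That is 2.26-fold higher, with no overlap (log2 change 1.18, SE 0.22, limma adjusted p = 0.032), and the largest rise in the set. Its relative Med13l went from 9.10 and 8.44 RPKM to 13.7 and 12.8 RPKM and was not called (log2 change 0.57, limma adjusted p = 0.08). Med12, which activates the kinase, was at 7.33 and 6.65 RPKM and then 5.94 and 8.06 RPKM, overlapping. Among genes of the same module outside the name rule, Ccnc, which encodes cyclin C, rose from 11.6 and 14.8 RPKM to 24.9 and 28.4 RPKM (log2 change 0.99, limma adjusted p = 0.024), while its kinases Cdk8 (0.12) and Cdk19 (0.16) were not called. Med30, a metazoan subunit placed here in the tail, rose from 32.5 and 31.0 RPKM to 55.6 and 49.6 RPKM, 1.64-fold (log2 change 0.72, SE 0.13, limma adjusted p = 0.031).

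The remaining Mediator genes were not called after heat, and they did not move as 1 block. In the middle module the estimates ran from -0.38 for Med1, the subunit that nuclear receptors contact, to 0.76 for Med21. Those of the head ran from -0.41 for Med18 to 0.37 for Med22, and those of the tail from -0.48 for Med24 to 0.74 for Med16. Med14, the backbone, was at 12.9 and 10.8 RPKM and then 17.6 and 16.9 RPKM (log2 change 0.53, limma adjusted p = 0.098). Both heat shock libraries lay above both untreated ones for 11 of the 29 genes and below for 7, where 22% and 35.8% of all tested rows did so.

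Among the TAFs no gene was called after heat shock. TFIID TAFs ran from -0.53 for Taf1, the largest TAF (30.6 and 27.9 RPKM, then 20.6 and 19.6 RPKM, limma adjusted p = 0.15), to 0.57 for Taf4b (2.50 and 2.28 RPKM, then 3.90 and 3.69 RPKM). All 4 TAFs of SL1, the factor that brings polymerase I to ribosomal DNA, lay below both untreated libraries, where 35.8% of all tested rows did, with estimates from -0.49 for Taf1b to -0.30 for Taf1a, and none was called. Taf15, an RNA-binding protein of the FET family, overlapped (log2 change 0.03).

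**Figure D2:**
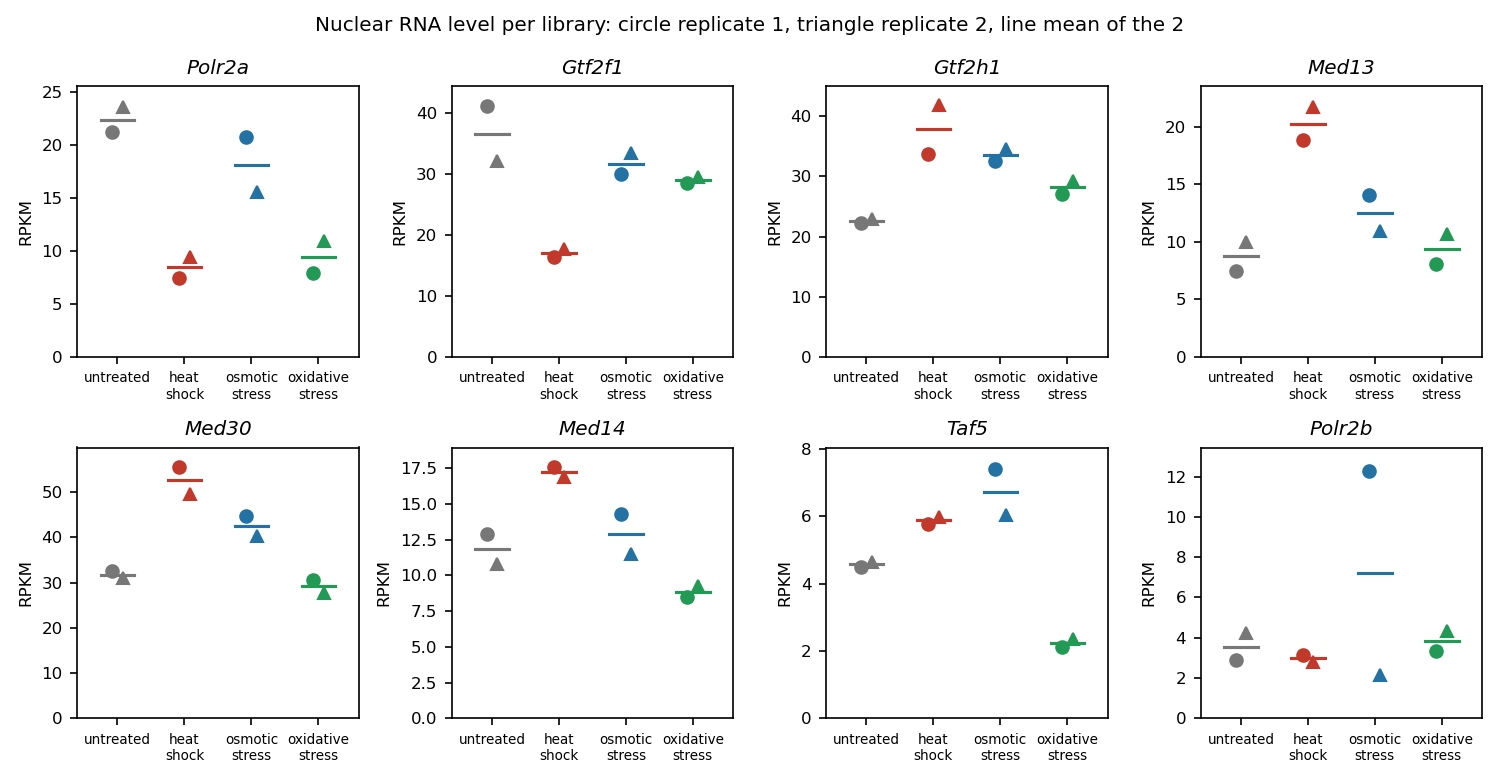
RPKM per library for 8 genes, with a linear axis from 0 in each panel; a circle is replicate 1, a triangle replicate 2, and the horizontal line their mean. Polr2a and Gtf2f1 are low after heat shock, Polr2a is also low after oxidative stress (7.94 and 10.9 RPKM), and for Polr2b osmotic stress replicate 1 stands alone at 12.3 RPKM.

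The 5 calls were not stable to leaving out a library. Without an untreated or a heat shock library, 1 library was left to stand for that group. The calls were then lost, apart from that of Gtf2f1 without untreated replicate 2. Why they were lost was not tested. Without either oxidative stress library, which bears only on the shared estimate of the spread, Polr2a and Gtf2f1 were called. The log2 changes themselves ranged from -1.53 to -1.2 for Polr2a, from -1.24 to -0.89 for Gtf2f1, from 0.98 to 1.37 for Med13, from 0.64 to 0.8 for Med30 and from 0.57 to 0.88 for Gtf2h1. When the libraries were rescaled, the calls were 7 higher and 2 lower under a median-of-ratios scaling and under quantile normalization, and 13 and 1 when the columns were scaled to a common sum without AC113316.1. None was called at a common sum of all rows or with only the 2 groups in the fit. In these heat shock libraries the fibroblast markers summed to 4091 and 4136 RPKM against 8338 and 8790 RPKM in untreated cells. Of their estimates 9 of 9 were below 0, as were 9408 of those of all 16056 tested rows, and Fn1 and Sparc were called lower. The markers of other cell types summed to 11.4 and 11.5 RPKM against 33.8 and 21.1 RPKM. That difference lies in Cd68 and Des, both called lower, and the other 9 summed to 0.715 and 0.6 RPKM against 0.74 and 0.496 RPKM. The part of these shifts in the results was not tested.

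The promoters of the genes called after heat shock are shown because they moved apart under 1 stress. They are RefSeq sequences on GRCm38.p6, each from 250 bases before to 50 bases after the start site and written along the gene's strand, and 4 of the 5 genes had an entry in the table used. Capitals mark matches on either strand to TATAAA (the core of the TATA box), to GAANNTTC or TTCNNGAA (the core of the heat shock element), to CCGGAAGT (an ETS site) or to TGACGTCA (the cAMP response element). A match says only that these letters are in the window.
Polr2a, chr11:69758584-69758883, minus strand: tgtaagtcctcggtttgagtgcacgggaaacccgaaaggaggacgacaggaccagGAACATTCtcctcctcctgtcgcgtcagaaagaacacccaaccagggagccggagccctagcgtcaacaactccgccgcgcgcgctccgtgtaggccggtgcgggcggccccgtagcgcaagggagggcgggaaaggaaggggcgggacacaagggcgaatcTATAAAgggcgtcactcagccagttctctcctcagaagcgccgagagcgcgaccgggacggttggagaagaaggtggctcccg
Gtf2f1, chr17:57011239-57011538, minus strand: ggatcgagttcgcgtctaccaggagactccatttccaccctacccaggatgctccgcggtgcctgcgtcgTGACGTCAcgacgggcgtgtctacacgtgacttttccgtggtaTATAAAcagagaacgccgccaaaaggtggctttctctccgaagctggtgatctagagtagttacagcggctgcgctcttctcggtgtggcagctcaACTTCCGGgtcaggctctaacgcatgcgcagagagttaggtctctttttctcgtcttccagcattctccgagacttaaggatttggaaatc
Med13, chr11:86357547-86357846, minus strand: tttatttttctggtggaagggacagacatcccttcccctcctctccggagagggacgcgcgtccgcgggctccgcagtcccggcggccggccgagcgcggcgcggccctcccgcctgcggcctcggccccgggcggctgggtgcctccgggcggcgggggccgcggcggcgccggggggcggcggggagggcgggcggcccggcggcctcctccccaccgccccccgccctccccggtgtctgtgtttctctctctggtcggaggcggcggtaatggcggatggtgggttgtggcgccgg
Gtf2h1, chr7:46795844-46796143, plus strand: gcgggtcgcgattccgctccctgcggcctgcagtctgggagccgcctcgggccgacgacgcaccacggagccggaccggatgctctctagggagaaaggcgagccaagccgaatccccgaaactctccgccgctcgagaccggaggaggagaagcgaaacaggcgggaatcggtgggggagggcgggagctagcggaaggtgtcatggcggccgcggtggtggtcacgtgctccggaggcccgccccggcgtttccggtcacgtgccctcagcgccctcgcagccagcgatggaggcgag
The promoter of Polr2a holds TATAAA with its first base at position -33 from the start site and GAACATTC, a form of GAANNTTC, at -195. That of Gtf2f1 holds TATAAA at -137, TGACGTCA at -180 and the reverse complement of CCGGAAGT at -41. The windows of Med13 and Gtf2h1 hold none of the 4 motifs, and 78.3% and 71% of their bases are G or C, against 63.7% and 54.3% for Polr2a and Gtf2f1.

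Of the 79 genes 67 matched a promoter, among them the 5 that were not tested. These 5 enter the shares of the members, while the tested genes set beside them leave out genes below the filter. TATAAA was found in 12 of them (17.9%), against 8.33% of 8679 tested genes and 15.7% of all 27025 genes of the promoter table, each gene counted once. The heat shock element core was in 16 (23.9%, against 14.1% and 17%), CCGGAAGT in 14 (20.9%, against 9.77% and 4.31%) and TGACGTCA in 3 (4.48%, against 3.83% and 2.03%). The median share of G and C was 58.7% in the members, 60.7% in tested genes and 52.8% in all. These shares are descriptions without a test.

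After osmotic stress most genes of the machinery had higher estimates, in every complex, but none was called. The median log2 change of the 74 genes was 0.39, against 0.18 over all tested rows. Of the 74 estimates 66 were above 0, as were 10986 of those of all 16056 tested rows. Both osmotic stress libraries lay above both untreated ones for 43 genes and below for 3, where 38.8% and 12.4% of all tested rows did so. Of all tested rows 0.691% were called, 0.43% higher and 0.262% lower. At an unadjusted limma p under 0.05 there were 30 of 74 genes, where 22.1% of all rows passed. Medians by complex lay close together, at 0.37 for the polymerase, 0.38 for Mediator, 0.44 for the general factors and 0.38 for the TAFs.

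The gene nearest to the threshold was Taf13, a small histone-fold TAF of TFIID, at 3.42 and 3.11 RPKM in untreated cells and 6.82 and 6.52 RPKM after osmotic stress (log2 change 0.93, SE 0.15, limma adjusted p = 0.057). Its histone-fold partner Taf11 was at 13.8 and 11.6 RPKM and then 21 and 16.8 RPKM (log2 change 0.55, limma adjusted p = 0.13). Med21, of the middle module, was at 23.2 and 16.6 RPKM and then 41.8 and 32.4 RPKM (log2 change 0.89, limma adjusted p = 0.099). Gtf2a1, the large subunit of TFIIA, was at 5.80 and 6.88 RPKM and then 14.0 and 10.4 RPKM (log2 change 0.88, limma adjusted p = 0.096). In all 4 genes the groups did not overlap. Without osmotic stress replicate 1 the log2 change was 0.90 for Taf13, 0.71 for Med21 and 0.67 for Gtf2a1. Gtf2b was at 26.6 and 19.2 RPKM (log2 change 0.70, limma adjusted p = 0.11), and Polr2j (Rpb11), at 112 and 87.2 RPKM against 73.0 and 56.4 RPKM, had the highest estimate of the polymerase (0.62, limma adjusted p = 0.16).

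Few genes went the other way. Taf1 was at 24.0 and 18.7 RPKM, below both untreated libraries (log2 change -0.46, limma adjusted p = 0.23), as was Polr2a at 20.7 and 15.5 RPKM (-0.31, limma adjusted p = 0.44) and Gtf2h2 at 10.9 and 11.3 RPKM (-0.16, limma adjusted p = 0.56). Within Mediator the lowest estimate was -0.10 for Med23, which overlapped. Polr2b was at 12.3 RPKM in osmotic stress replicate 1 and at 2.15 RPKM in replicate 2, the widest gap between replicates of any tested member (log2 difference 2.27). Med20, of the head module, behaved alike with 15.2 and 4.86 RPKM. Neither gene's osmotic stress values can be read as a level of the group.

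Osmotic stress replicate 1 is the library that stands apart, and 64 of the 74 genes were higher in it than in replicate 2. Without it the median of the 74 genes was 0.27, and without replicate 2 it was 0.48. Without replicate 2 there were also 3 calls, Gtf2a1 (log2 change 1.09), Gtf2b (0.93) and Polr2b (1.67), which then rest on replicate 1 alone. The direction rests on the scaling of the libraries: the median was 0.19 under the median-of-ratios scaling, 0.18 after quantile normalization and 0.20 at a common sum without AC113316.1, where all tested rows were at 0.01, 0.02 and 0.01. It was -0.24 at a common sum of all rows, where all rows were at -0.35 and 67 of the 74 members had an estimate below 0. How many of all tested rows lay below 0 at that common sum was not counted. Under each of these 5 scalings the median of the members was above that of all rows, by values that were not tested. The same order of the 2 medians was found after heat shock under each of the 5.

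**Figure D3:**
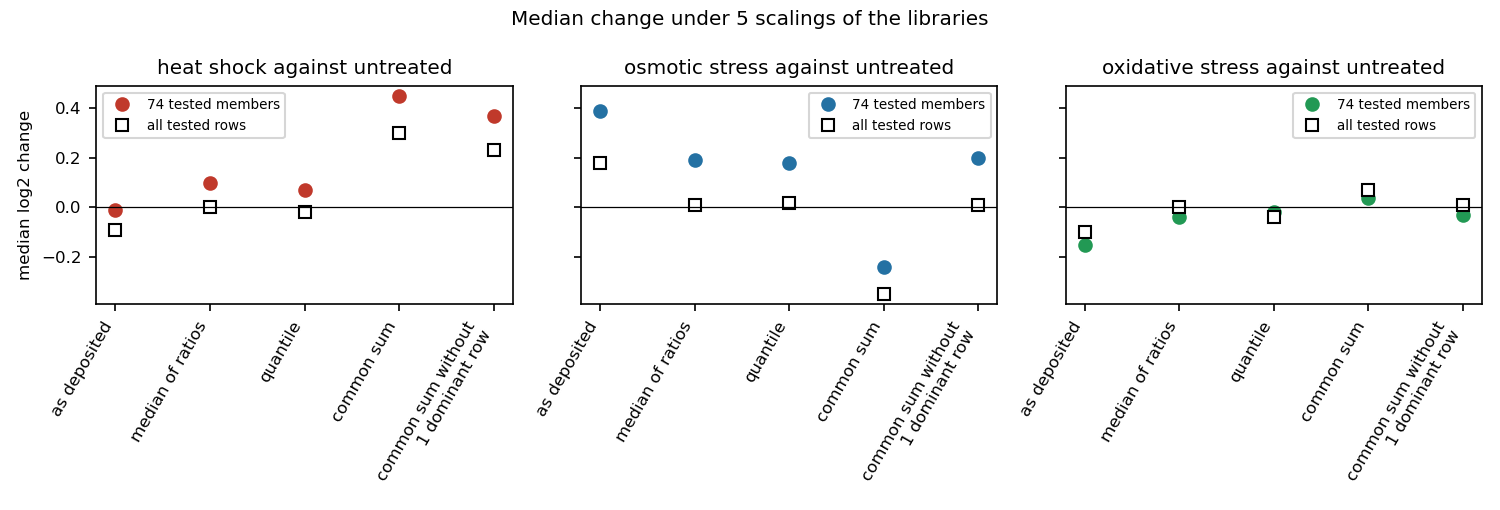
Median log2 change against untreated cells of the 74 tested members (filled circles) and of all tested rows (open squares) under 5 scalings of the libraries, with 1 panel per stress. For osmotic stress the members go from 0.39 as deposited to -0.24 at a common sum. They stay above all rows under each of the 5, as they also do for heat shock.

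After oxidative stress the estimates were mostly small and below 0, and none was called, where 1.48% of all tested rows were (1.29% higher and 0.193% lower). At an unadjusted limma p under 0.05 there were 8 of 74 genes, where 17.9% of all rows passed. The median log2 change was -0.15, against -0.10 over all tested rows. Both oxidative stress libraries lay below both untreated ones for 21 genes and above for 7, where 30.1% and 18% of all rows did so.

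Polr2a was again the polymerase gene farthest from untreated cells, at 7.94 and 10.9 RPKM against 21.2 and 23.5 RPKM. The groups did not overlap, but the limma adjusted p was 0.055 (log2 change -1.22, SE 0.22), and it ranged from 0.047 to 0.75 over the other scalings, filters and fits with all 8 libraries. Taf5, the WD-repeat scaffold of TFIID, was at 2.12 and 2.34 RPKM against 4.48 and 4.65 RPKM, also without overlap (log2 change -0.89, SE 0.15, limma adjusted p = 0.053). Taf6l, which takes the place of TAF6 in the SAGA coactivator, was at 6.44 and 7.04 RPKM against 11.8 and 10.1 RPKM (log2 change -0.65, SE 0.13, limma adjusted p = 0.073). Its SAGA companion Taf5l was at 12.0 and 10.7 RPKM against 18.2 and 12.7 RPKM (log2 change -0.41, limma adjusted p = 0.37). Polr2a is not called here although its estimate is close to that after heat shock; the difference between the 2 stresses was -0.15 (SE 0.22, limma adjusted p = 0.69), and a p that misses the threshold does not show that the 2 stresses act alike.

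Mediator estimates after oxidative stress ran from -1.26 for Med20, whose replicates were far apart (3.56 and 2.08 RPKM), to 0.18 for Med10. All 9 tail genes had an estimate below 0, from -0.43 for Med29 to -0.12 for Med30, and 23 of 29 Mediator genes did so in all. Of all 16056 tested rows 9972 had an estimate below 0. None of the 29 lay above both untreated libraries and 11 lay below both, where 18% and 30.1% of all tested rows did so. The general factors ran from -0.32 for Gtf2f1 (28.4 and 29.4 RPKM) to 0.46 for Gtf2h3, a TFIIH subunit at 18.2 and 13.9 RPKM against 12.3 and 10.7 RPKM. Taf1d had the highest estimate of the set (0.48, limma adjusted p = 0.42), at 240 and 152 RPKM, both above the untreated values. Taf1 was at 37.9 and 27.7 RPKM and overlapped them.

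**Figure D4:**
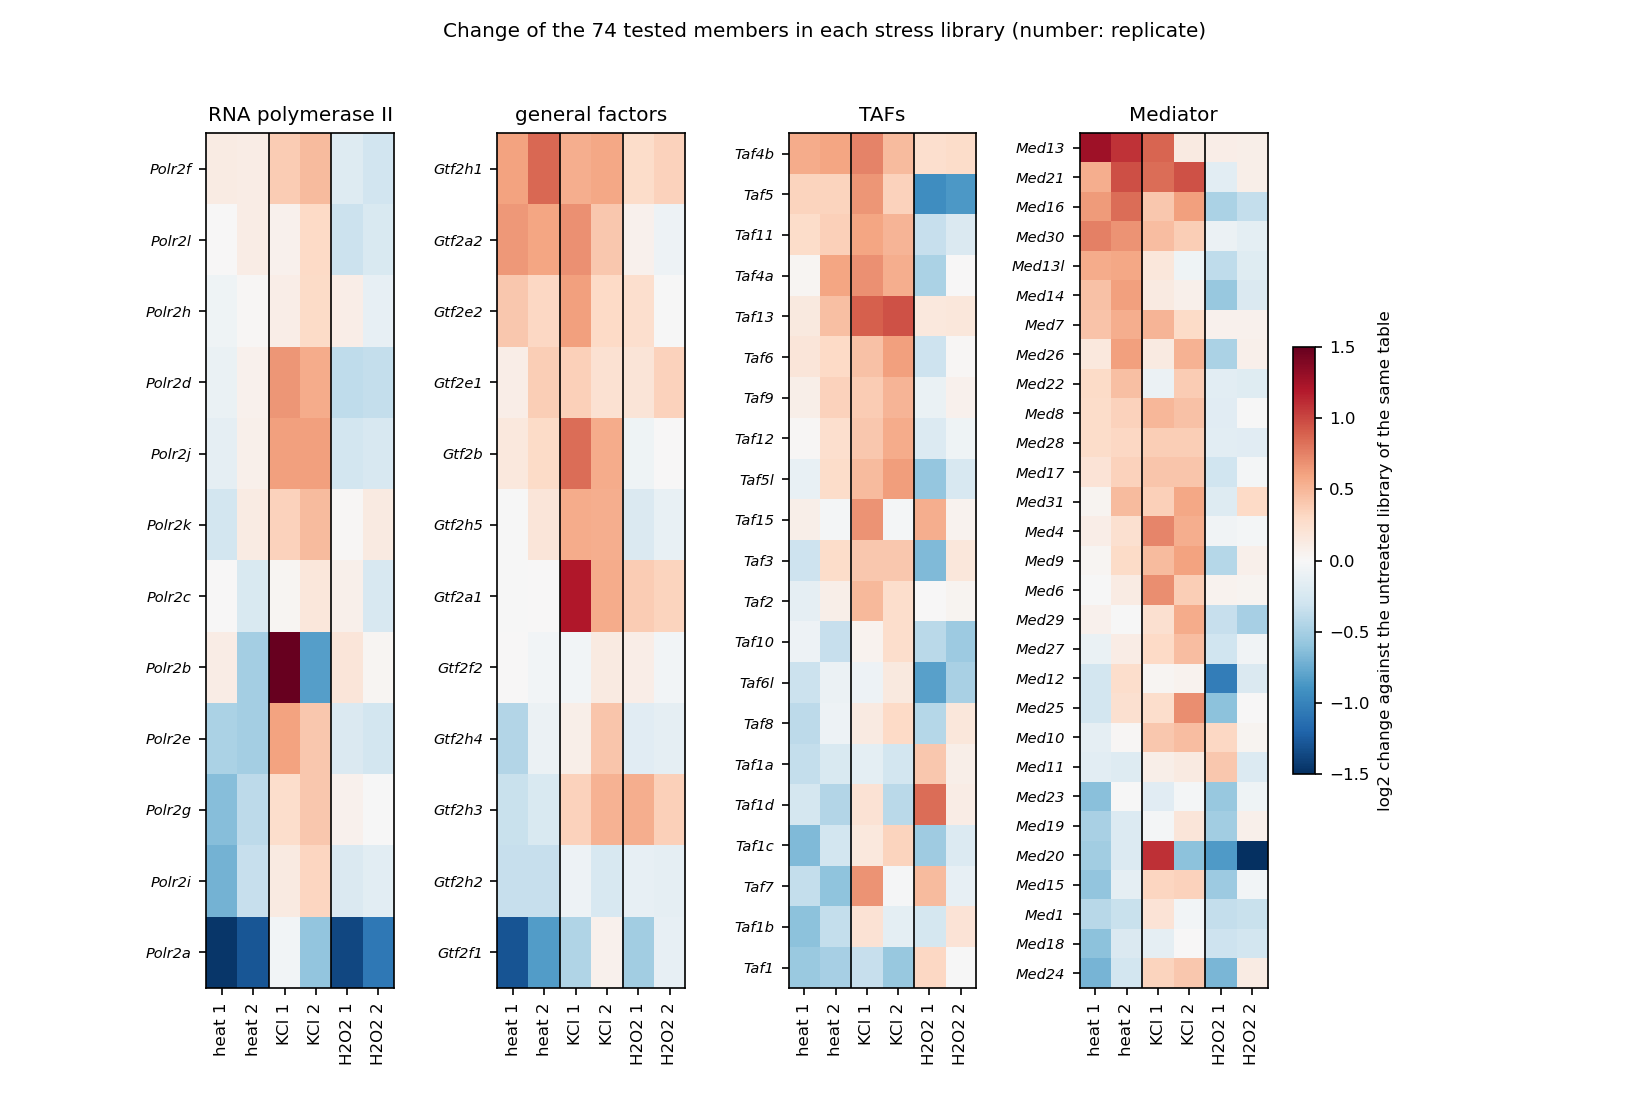
Log2 change of each of the 74 tested genes in each stress library against the untreated library of the same table, with 1 panel per complex and genes ordered by their change after heat shock; red is higher and blue lower, and colours end at 1.5 in either direction. Med13 and Gtf2h1 are red and Polr2a and Gtf2f1 blue in both heat shock libraries, Polr2a is blue under oxidative stress as well, and Polr2b differs in sign between the osmotic stress libraries.

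Heat shock and oxidative stress were then set against each other. The estimates of this comparison need no untreated library, although its p-values use the spread shared by all 8 libraries. Of the 74 genes 7 were higher after heat shock and 3 lower, where 14.2% of all tested rows were called (5.76% higher and 8.4% lower). The members' share called, 13.5%, is near that background. An unadjusted limma p under 0.05 was found for 22 genes, where 33.1% of all rows had one. Of the 7 higher genes 6 belong to Mediator, which had none lower among its 29. Both heat shock libraries lay above both oxidative stress libraries for 19 of the 29 Mediator genes and below for 2, where 31.5% and 33.5% of all tested rows did so.

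The highest difference was that of Taf5, at 5.76 and 5.98 RPKM after heat shock and 2.12 and 2.34 RPKM after oxidative stress (2.34-fold, log2 difference 1.22, SE 0.15, limma adjusted p = 0.0094). Med16, of the tail, was at 11.7 and 9.37 RPKM against 5.11 and 3.78 RPKM (log2 difference 1.16, limma adjusted p = 0.029). Med13 was at 18.8 and 21.7 RPKM against 8.08 and 10.7 RPKM (1.08, limma adjusted p = 0.027), and Med13l at 13.7 and 12.8 RPKM against 6.89 and 7.39 RPKM (0.85, limma adjusted p = 0.022). All 3 tested kinase-module genes of the set thus lay higher after heat shock without overlap, Med12 with a difference of 0.62 that was not called. Med14 was at 17.6 and 16.9 RPKM against 8.49 and 9.23 RPKM (0.93, limma adjusted p = 0.019), Med30 differed by 0.84 (limma adjusted p = 0.016) and Med28 by 0.46 (limma adjusted p = 0.041).

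The 3 lower genes were Gtf2f1, with a log2 difference of -0.75 (limma adjusted p = 0.029), Gtf2h3, at 9.68 and 9.03 RPKM after heat shock and 18.2 and 13.9 RPKM after oxidative stress (-0.74, limma adjusted p = 0.035), and Polr2g, at 33.2 and 38.2 RPKM against 54.4 and 49.8 RPKM (-0.54, limma adjusted p = 0.043). Ccnc, outside the set, lay at 24.9 and 28.4 RPKM after heat shock and 12.4 and 12.9 RPKM after oxidative stress. The direction of the 6 Mediator genes and of Taf5 was the same under each of the 5 scalings. The counts were 10 higher and 3 lower under the median-of-ratios scaling, and 12 and 3 after quantile normalization. They were 14 and 0 at a common sum without AC113316.1, and 0 at a common sum of all rows. With only the 2 groups in the fit, 7 were higher and 1 lower. Without heat shock replicate 1, heat shock replicate 2 or oxidative stress replicate 1 none was called, and without oxidative stress replicate 2 there were 1 higher and 1 lower.

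**Figure D5:**
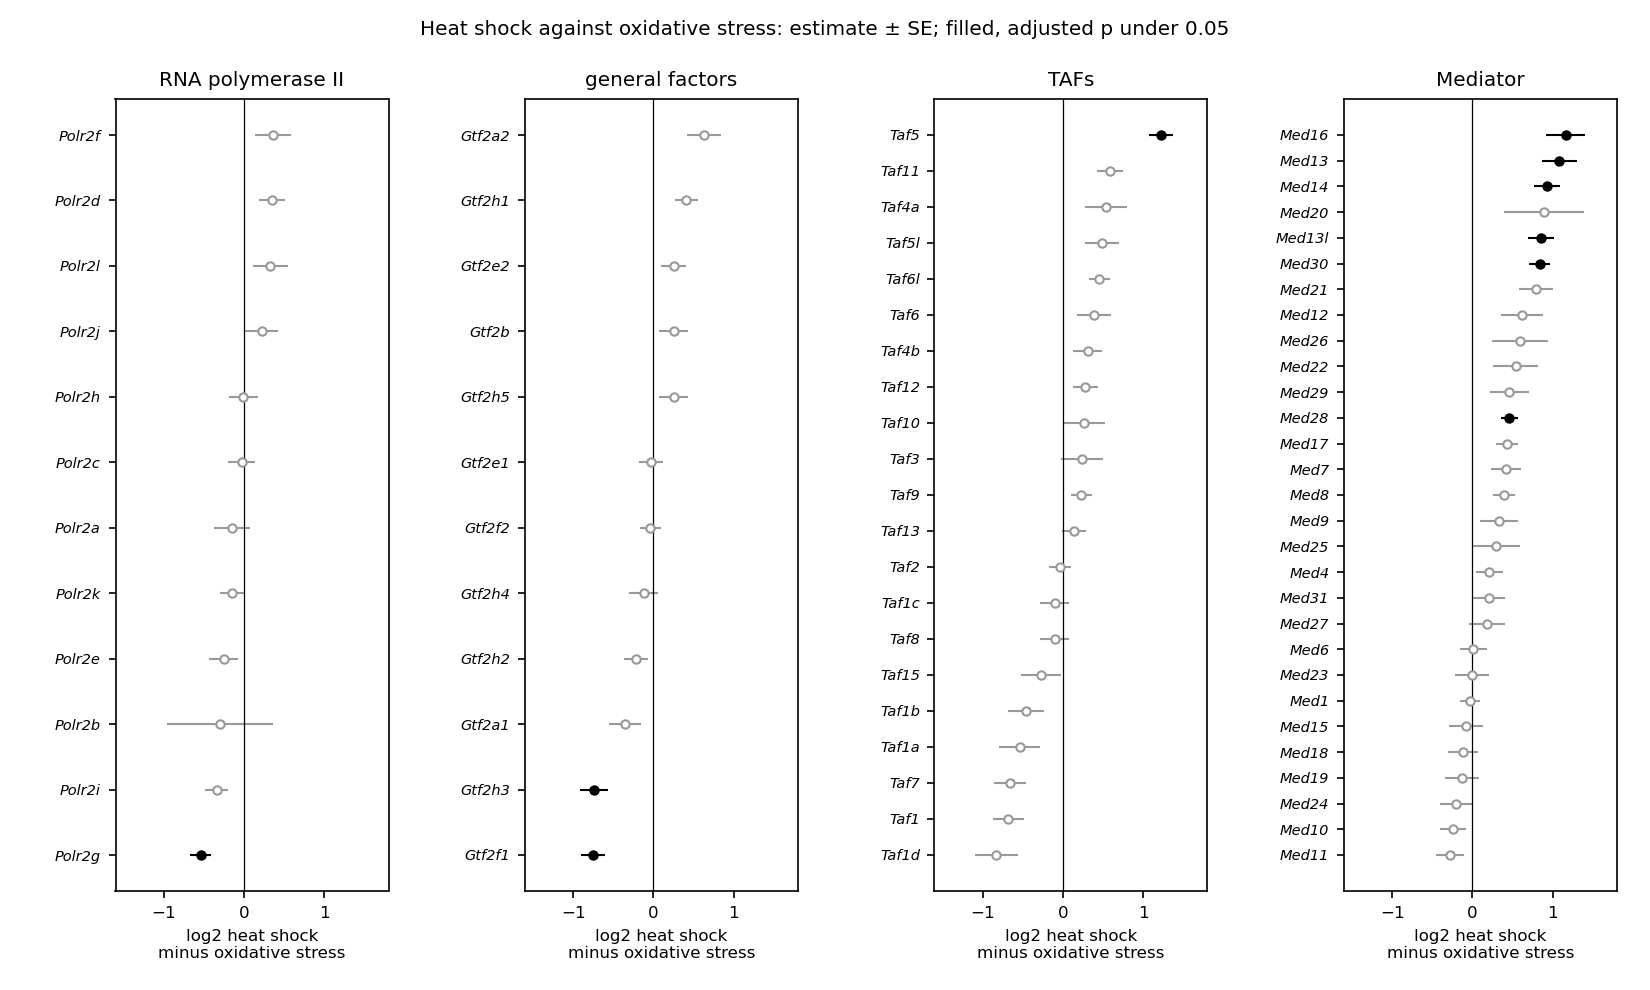
Difference between heat shock and oxidative stress on the log2 scale for the 74 tested genes, as estimate and SE from limma, with 1 panel per complex; filled points have an adjusted p under 0.05. Filled points on the right are Taf5 and 6 Mediator genes, and those on the left Gtf2f1, Gtf2h3 and Polr2g.

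Set against osmotic stress, 6 genes were lower after heat shock and none higher, where 8.2% of all tested rows were called (1.78% higher and 6.42% lower). The members' share called, 8.11%, is near that background. Both heat shock libraries lay below both osmotic stress libraries for 47 of the 74 genes and above for 4, where 50.2% and 9.28% of all rows did so, and 27 genes had an unadjusted limma p under 0.05, where 27.5% of all rows did. The called genes were Polr2a (-1.05), Polr2e (-1.0), Polr2g (-0.85), Polr2i (-0.75), Gtf2f1 (-0.87) and Gtf2a1 (-0.88), of which 4 are polymerase subunits. Polr2e, a subunit shared by the 3 nuclear polymerases, was at 34.9 and 29.9 RPKM after heat shock and 74 and 57.2 RPKM after osmotic stress (limma adjusted p = 0.027). The split depends on the scaling: it was 2 higher and 0 lower under the median-of-ratios scaling, 3 and 1 after quantile normalization and 4 and 0 at a common sum without AC113316.1, and none was called with only the 2 groups in the fit. Without osmotic stress replicate 1, and likewise without either heat shock library, none was called, and 1 was without either oxidative stress library.

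Osmotic against oxidative stress gave 20 higher and 0 lower of 74 genes, where 19.3% of all rows were called, 14.2% higher and 5.14% lower. An unadjusted limma p under 0.05 was found for 42 genes, where 39.2% of all rows had one, and both osmotic stress libraries lay above both oxidative stress libraries for 57 genes, where 49.3% of all rows did so. Of the called genes Taf5 differed most (7.39 and 6.02 RPKM against 2.12 and 2.34 RPKM, log2 difference 1.40, limma adjusted p = 0.013), then Polr2d (Rpb4), at 23.3 and 18.8 RPKM against 11.1 and 9.70 RPKM (0.98, limma adjusted p = 0.021). The next 13 by size were Taf5l (0.96), Med16 (0.94), Med21 (0.92), Polr2a (0.91), Polr2j (0.87), Taf11 (0.83), Taf13 (0.77), Polr2e (0.75), Gtf2b (0.72), Gtf2h5 (0.72), Taf6l (0.69), Med4 (0.68) and Taf12 (0.62), drawn from all 4 complexes. Med20 had a higher estimate (1.50), was not called (limma adjusted p = 0.075) and had osmotic stress replicates far apart. The count was 2 higher and 1 lower under the median-of-ratios scaling, 2 and 2 after quantile normalization and 1 and 1 at a common sum without AC113316.1, and none was called at a common sum of all rows or with only the 2 groups in the fit. No gene was called without osmotic stress replicate 1, the library that stands apart, nor without oxidative stress replicate 1, and 1 was called without oxidative stress replicate 2 or without either heat shock library.

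Other genes of the pathway were counted from lists of names. After heat shock, the TBP family had 0 higher and 0 lower of 2 tested genes. Tbp, the TATA-binding subunit of TFIID, was at 9.58 and 6.69 RPKM and then 7.10 and 7.45 RPKM, while Tbpl2 was listed at 0 in every library. The 5 TFIIH subunits outside the name rule had 0 and 0, from -0.29 for Mnat1 to 0.55 for Ccnh, both of its kinase arm. The 13 genes of polymerase assembly and of the phosphatases of its C-terminal repeats had 0 and 0, from -0.43 for Rpap3 to 0.39 for Gpn3.

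Among 19 subunits of polymerases I and III, 1 rose and 3 fell after heat shock, where 2.54% of all tested rows were called higher and 4.08% lower. Polr1a, the largest subunit of polymerase I, fell from 59.9 and 46.3 RPKM to 22.8 and 23.7 RPKM (log2 change -1.16, limma adjusted p = 0.019). Polr3a, the largest of polymerase III, fell from 15.9 and 12.0 RPKM to 6.70 and 7 RPKM (-0.96, limma adjusted p = 0.033), and Polr1c, shared by the 2, from 44.8 and 43.0 RPKM to 29.3 and 28.7 RPKM (-0.59, limma adjusted p = 0.042). Over the 5 scalings the change of Polr1a ran from -1.16 to -0.69, with 3 of the 5 called, and that of Polr3a from -0.96 to -0.51, also with 3. Polr1c ran from -0.59 to -0.12 and was called only as deposited. Twistnb, a polymerase I subunit, rose from 4.97 and 6.02 RPKM to 15.1 and 13.3 RPKM (1.30, limma adjusted p = 0.027). Like the calls among the members, those of Polr1a, Polr3a, Polr1c, Twistnb and Ccnc were lost without either heat shock library, without untreated replicate 1 and with only the 2 groups in the fit, and of the 5 only Polr1a was called without untreated replicate 2 or without either oxidative stress library. After osmotic and after oxidative stress, none of the genes in these 5 lists was called.

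Reads of neighbouring genes can enter a gene model, and which strand was counted is not given in the sources used here. By name 78 of the 79 genes were found in GENCODE M21; 38 overlap another annotated gene and 21 a protein-coding one. The pseudogene Gm9392 lies within Gtf2h1 on the other strand and went from 4.64 and 5.74 RPKM to 13.5 and 11.5 RPKM after heat shock and 13.2 and 9.67 RPKM after osmotic stress, in the same direction as Gtf2h1. Its part in the Gtf2h1 values was not tested. Brip1os overlaps Med13 on the other strand and was at 0.000661 and 3.97 RPKM in untreated cells and 3.02 and 1.52 RPKM after heat shock, below Med13 in each library. No gene of the counted types overlaps Polr2a, Gtf2f1 or Med30 in that annotation. A protein-coding gene on the same strand ends within 5000 bases upstream of 11 of the genes. For Polr2a this is Slc35g3, 1253 bases away, which was at or below 0.0264 RPKM in each library, and for Gtf2f1 the nearest such gene, Khsrp, at 30.7 and 19.7 RPKM untreated and 32.2 and 23.6 RPKM after heat shock, ends 9763 bases upstream. Taf9 overlaps Ak6 on the same strand. Among others, Med20 overlaps the protein-coding gene Gm20517 and Polr2b the pseudogene Gm42758, also on the same strand. How the reads of such pairs were divided is not given, and their part in the values was not tested.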

How the data were processed

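Nuclear RNA of 8 libraries was sequenced. Per the labels' protocols, nuclei were pelleted through sucrose, and dUTP libraries that keep the strand were made from DNase-treated RNA freed of ribosomal RNA. Per the submitters' processing notes, the tools were Cufflinks, Bowtie and SAMtools and the build mm9. The annotation, the versions, the counted strand and any filters were not given in the sources used here. RPKM were deposited by the authors in 2 tables, for replicates 1 and 2, with 1 library per group in each. Counts are not part of them, so depth is unknown and no counting interval is given: the RPKM most frequent among olfactory receptor rows was shared by only 2 to 12 rows of a library.

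RPKM were used as deposited. The 16056 rows that reached 0.5 RPKM in 2 or more libraries entered 1 limma 3.58.1 model (R 4.3.3) of log2(RPKM + 0.5) with the 4 groups, trend and empirical Bayes moderation (residual degrees of freedom 4, prior 2.59, median SE 0.21), adjusted by Benjamini-Hochberg over all rows. An exact permutation of 2 against 2 libraries cannot go below p = 0.333, so each call rests on a spread pooled over genes and groups. The same fit was also run on simulated libraries with known changes and independent normal noise. These held no shared replicate effect, no library that stands apart and no difference in scaling, so that run checks the code and not these calls. Genes were named by a rule: all called members (at most 15 between stresses), the highest and lowest change in each module, the highest and lowest level in each complex, those not tested, and Polr2a, Polr2b, Med1, Med12, Med14, Gtf2b and Taf1; any others were named after their values were seen. The members, lists and motifs were chosen with earlier results of these data known. Alternatives were other pseudocounts, filters and scalings, a replicate block, each comparison alone and each library left out. Neighbouring genes were read from GENCODE M21 by name, without coordinates, since its build differs from mm9; promoters are from RefSeq.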

Additional observations from a re-analysis of the deposited data

How the results depend on the processing

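The counts of members called were the same under pseudocounts of 0.1 and 1, apart from 8 in place of 6 for heat shock against osmotic stress at 0.1. Called after heat shock were 5 of 74 members. The count was 2 with no filter on low values, 9 under the median-of-ratios scaling, 9 after quantile normalization, 0 at a common sum, 14 at a common sum without AC113316.1 (a scaling chosen after seeing the data), 11 with the replicate block, 0 with only the 2 groups in the fit, and 0 to 5 without 1 library. After osmotic stress it was 0, then 1 with a filter of 1 RPKM, 2 with the replicate block and 0 to 3 without 1 library. After oxidative stress it was 0, then 2 with no filter, 2 under the median-of-ratios scaling, 1 after quantile normalization and 0 without any 1 library. Heat shock against osmotic stress gave 6, then 2 under the median-of-ratios scaling, 1 at a common sum, 12 with the replicate block, 0 with only the 2 groups and 0 to 5 without 1 library. Heat shock against oxidative stress gave 10, then 0 at a common sum, 19 with the replicate block and 0 to 9 without 1 library. Osmotic against oxidative stress gave 20, then 11 with no filter, 3 under the median-of-ratios scaling, 4 after quantile normalization, 0 at a common sum, 2 at a common sum without AC113316.1, 36 with the replicate block, 0 with only the 2 groups and 0 to 18 without 1 library. The median change after heat shock (-0.01) was 0.1 under the median-of-ratios scaling, 0.45 at a common sum, 0.37 without AC113316.1 and -0.11 to 0.14 without 1 library. After osmotic stress (0.39) it was 0.4 and 0.36 with pseudocounts of 0.1 and 1, 0.37 with no filter, 0.19 under the median-of-ratios scaling, -0.24 at a common sum, 0.2 without AC113316.1, 0.18 after quantile normalization and 0.27 to 0.48 without 1 library. After oxidative stress (-0.15) it was 0.04 at a common sum, -0.03 without AC113316.1, -0.02 after quantile normalization and -0.29 to -0.01 without 1 library. At a common sum, which AC113316.1 shifts through osmotic stress replicate 1, 14 called differences changed sign among the genes named for each comparison. For heat shock against osmotic stress these were Gtf2a1 (0.20), Gtf2f1 (0.25), Polr2a (0.05), Polr2e (0.14), Polr2g (0.29) and Polr2i (0.37). For osmotic against oxidative stress they were Gtf2b (-0.12), Gtf2h5 (-0.14), Med4 (-0.12), Polr2e (-0.11), Taf11 (-0.00), Taf12 (-0.21), Taf13 (-0.00) and Taf6l (-0.12). Taf9, Med30, Med8, Med28 and Med17 were also called in that comparison but not named for it. Their signs at a common sum were not examined, so the list may be incomplete. The cause of the other shifts was not tested. Replicate numbers were not used as a pairing in the main fit, since the labels do not say that a number marks a shared culture or day. Each number does have its own deposited table with all 4 groups. The most frequent olfactory receptor value was 0.0146 to 0.0154 RPKM in the replicate 1 libraries and 0.0191 to 0.0209 RPKM in those of replicate 2. The replicate differences of the groups correlated with 0.062 to 0.264 across rows, each above 0. Whether libraries of 1 number share a batch was not tested. Depth is unknown, so no limit from counting can be given. Over all named members and settings, 313 values lost a call with the sign kept and 34 gained one. The 14 that changed sign lost their call as well. Of 2934 values of differences that were not called, 233 had the other sign, so the direction of a difference that was not called is not settled, as for Gtf2a1 and Taf15 after heat shock.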

Other observations

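The level of Taf1d, which in GENCODE M21 holds 10 small RNAs, was 240 RPKM in oxidative stress replicate 1 and 152 RPKM in replicate 2, and 157 and 106 RPKM under osmotic stress, so its replicates were farther apart under these stresses than in untreated cells (134 and 141 RPKM). Across 73 members with a gene length, Spearman's rho between gene length and log2 change was 0.13 after heat shock, -0.08 after osmotic stress and 0.07 after oxidative stress. Between the untreated level and the change it was -0.09, -0.06 and 0.07. These are descriptions across genes of the same libraries, which share the untreated values, and genes are not independent replicates. Of the 74 tested members 57 were higher in replicate 1 than in replicate 2 in untreated cells, 41 after heat shock, 64 after osmotic stress and 49 after oxidative stress. The median size of that difference on the log2 scale was 0.22, 0.13, 0.27 and 0.19 in the same order.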
